A study of Homo sapiens with 12 samples.

Results

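The receptor complex for bacterial lipopolysaccharide and its first signalling proteins were described in HepG2 cells, an established human hepatoma line with the wild-type genotype per the labels. The genes were chosen by name as 10 symbols: the receptor TLR4, its co-receptor proteins LY96 and CD14, the adaptors MYD88, TIRAP and TICAM1, and the downstream enzymes IRAK1, TRAF6, TRAF3 and TBK1. All 10 were found among the 28256 gene symbols of the deposited table, and for each the transcript with the highest total over the libraries was kept. RNA was sequenced in 12 libraries, 3 in each of 4 groups. Before treatment all cells spent 24 h in charcoal-stripped serum, and RNA was taken after 24 h of treatment. The vehicle group received 0.1% DMSO (DMSO), and the others 50 nM dexamethasone (Dex), KLA at a labelled 100 ng/µl (KLA), or both agents at these doses (DexKLA). A DMSO percentage is labelled only for vehicle cells. The labels do not spell out KLA, which is also a common abbreviation of Kdo2-lipid A, the part of lipopolysaccharide that TLR4 recognises. They do not say whether replicates were separate cultures, so the p-values measure only how these libraries vary, and that variation may be technical.

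TLR4 is a membrane receptor that binds lipopolysaccharide only together with the secreted protein LY96 (MD-2), and CD14 hands the lipid to this pair. From the plasma membrane, TIRAP and MYD88 recruit the kinase IRAK1 and the ubiquitin ligase TRAF6, which lead to NF-kB and MAP kinase signalling. From endosomes, TICAM1 (TRIF) recruits TRAF3 and the kinase TBK1, which lead to interferon regulatory factor 3. In the liver these genes are best known in Kupffer cells, the resident macrophages, while hepatocytes are a main source of soluble CD14 and of lipopolysaccharide-binding protein. Dexamethasone is a drug ligand of the glucocorticoid receptor, and glucocorticoids damp many inflammatory genes.

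Total counts per library ran from 3317740 to 20933501. Every KLA library was deeper than every DMSO library, so for KLA versus DMSO depth and treatment cannot be told apart. DMSO replicate 1, the shallowest library, stood apart from all others on the first principal component of log2 expression (39.6, against 15.6 and 16.9 in the other DMSO libraries and at most 5.49 elsewhere). Each call against DMSO is therefore given with and without it. All 9 hepatocyte markers were well detected. Their summed level was 93700 to 111000 CPM (counts scaled by library size) in DMSO cells, 132000 to 139000 in Dex cells, 124000 to 131000 in KLA cells and 119000 to 161000 in DexKLA cells. That sum was mostly albumin, ALB (mean 66400 CPM in DMSO, 82200 in Dex, 88500 in KLA and 91100 in DexKLA cells). The 9 markers did not move together. From DMSO to Dex cells mean AFP went from 15300 to 33500 CPM, FGB from 1350 to 900 and APOB from 6050 to 3860. From DMSO to KLA cells AFP went to 21800 and HNF4A from 239 to 184. Of 10 myeloid markers, PTPRC, CD163, SPI1 and TYROBP had at most 1 count in any library, CSF1R at most 5 and ITGAM at most 2. LYZ, CD68 (41.1 to 54.6 CPM), AIF1 (1.65 to 4.41) and FCER1G (0.886 to 2.52) were detected in all 12. The summed myeloid level (3750 to 4330 CPM in DMSO cells, 4070 to 4260 in Dex cells, 4410 to 4890 in KLA cells, 3890 to 4460 in DexKLA cells) was almost all lysozyme, LYZ. Endothelial and stellate markers summed to 43.4 to 55.2 CPM. The part of such cells in the results was not tested.

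The receptor itself was the lowest of the 10 genes in every group, and the kinase IRAK1 the highest. Levels of different genes are compared here as CPM per kilobase of transcript, mean ± SD over 3 libraries. IRAK1 stood at 81.3 ± 6.66 in DMSO cells, 73.8 ± 5.34 in Dex cells, 79.5 ± 2.24 in KLA cells and 76.7 ± 7.09 in DexKLA cells. MYD88 (15.1 ± 2.42) and TBK1 (12.9 ± 1.61) followed in DMSO cells, and their libraries overlapped. In KLA cells TBK1 stood at 18.4 ± 0.94 and MYD88 at 13.5 ± 1.11, and in DexKLA cells at 19.4 ± 2.2 and 14.4 ± 1.14, in both with no overlap. The next 5 genes in DMSO cells, CD14, TIRAP, TRAF3, LY96 and TICAM1, lay between 3.9 ± 2.27 and 2.01 ± 0.595, each overlapping its neighbour in the order. TRAF6 followed at 0.702 ± 0.177 and TLR4 at 0.0348 ± 0.0293. TRAF6 was 9th and TLR4 10th in all 4 groups. CD14 was 4th with DMSO, 6th with Dex, 7th with KLA and 8th with DexKLA, where it stood at 1.11 ± 0.485. Its place in DMSO cells rests on replicate 1, at 6.51 CPM per kilobase against 2.4 and 2.79 in the other DMSO libraries.

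**Figure D1:**
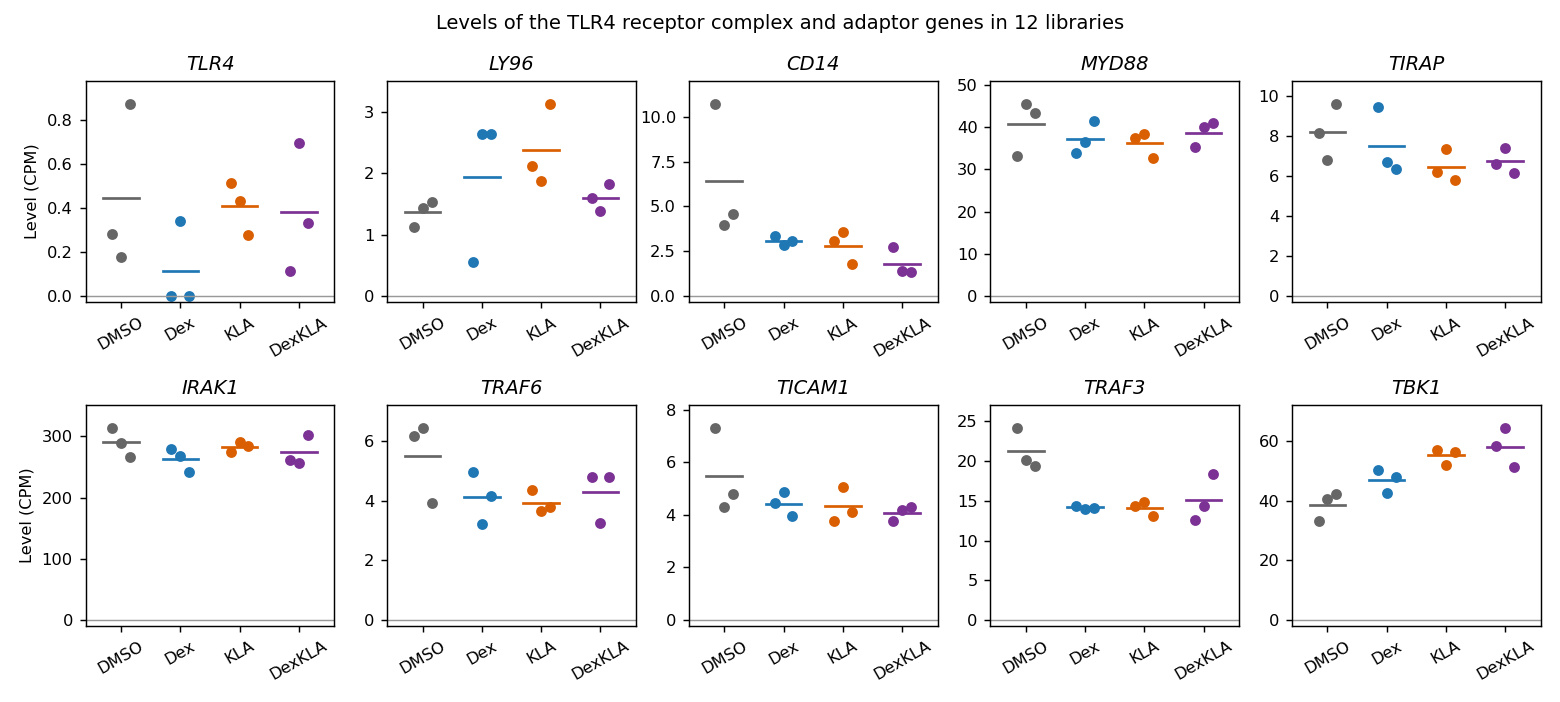
Level of each of the 10 genes in CPM, on a separate linear axis per gene. Points are single libraries and horizontal lines the means of 3 libraries in the DMSO, Dex, KLA and DexKLA groups. CD14 in DMSO replicate 1 (10.7 CPM) lies above all other CD14 points, and the 3 DMSO points lie above all treated points for TRAF3 and below all of them for TBK1.

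Upstream sequence was taken from RefSeq (GRCh38.p14), whose promoter table matched 8 of the 10 genes (LY96 and TIRAP were not matched). The 250 bases before each RefSeq start were searched on both strands for 4 motifs: the NF-kB consensus, the AP-1 site TGANTCA, the GC box GGGCGG and the palindromic glucocorticoid response element (AGAACA, 3 free bases, then its reverse complement). The NF-kB consensus was found for TRAF3, TICAM1 and IRAK1, and in 9.96% of all 35116 promoters of the table. AP-1 was found for CD14 alone of the 8 (6.57% of all promoters), GC boxes for TLR4, MYD88, IRAK1, TRAF6, TICAM1 and TRAF3 (42.6% of all promoters), some of them overlapping one another. The glucocorticoid response element was found for none of the 8 (0.00285% of all promoters). No NF-kB or AP-1 match overlapped another motif. These are letter matches and not measured binding. The stretches below are shown because TRAF3 and TICAM1, both of the TRIF branch, carry the same motif and were called and not called respectively, a difference that was not tested, and because CD14 had the largest fitted change of the 9 tested genes. Capitals mark the NF-kB match in TRAF3 (chr14:102777199-102777448, plus strand, match 33 to 24 bases before the start) and in TICAM1 (chr19:4831743-4831962, minus strand, match 120 to 111 bases before the RefSeq start). The TICAM1 stretch is 220 bases long, ending where the deposited transcript model begins. In CD14 capitals mark the AP-1 match (chr5:140633380-140633409, minus strand, 223 to 217 bases before the RefSeq start). That CD14 stretch lies inside the span of the deposited transcript model, which starts farther upstream than the RefSeq start used. Among the 8 windows, those of TRAF3 and TICAM1 alone held no annotated exon (GENCODE 29).
TRAF3: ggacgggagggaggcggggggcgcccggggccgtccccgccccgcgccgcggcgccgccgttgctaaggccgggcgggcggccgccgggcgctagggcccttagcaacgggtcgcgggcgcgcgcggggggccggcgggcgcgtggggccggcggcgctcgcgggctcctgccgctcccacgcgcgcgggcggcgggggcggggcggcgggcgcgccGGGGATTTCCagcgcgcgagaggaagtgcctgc
TICAM1: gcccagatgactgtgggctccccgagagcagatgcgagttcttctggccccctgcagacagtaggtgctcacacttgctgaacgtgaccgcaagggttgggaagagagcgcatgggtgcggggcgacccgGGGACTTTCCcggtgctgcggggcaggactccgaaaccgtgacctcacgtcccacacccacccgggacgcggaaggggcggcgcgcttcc
CD14: cctggggcgccTGAGTCAtcaggacactgc

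TLR4 (chromosome 9, 117704403 to 117724735, hg38) was close to the detection limit in all groups. Its deposited counts were 1, 1 and 3.5 in the DMSO libraries, 0, 6 and 0 in Dex cells, 8, 9 and 5 in KLA cells, and 1, 3 and 3.5 in DexKLA cells. The KLA counts are higher in number, but those libraries are also the deepest, and as CPM the groups overlapped. Pooled over the 3 libraries of a group, TLR4 stood at 0.461 CPM in DMSO cells (95% exact Poisson interval 0.169 to 1), 0.23 with Dex (0.0846 to 0.502), 0.396 with KLA (0.248 to 0.6) and 0.316 with DexKLA (0.137 to 0.623). These intervals cover counting error only, and they overlap. A library of 3317740 counts cannot resolve a level under 0.904 CPM (3 counts). The gene did not pass the filter on low counts and was not tested. It overlaps AL160272.2 on the same strand and RNU6-1082P on the opposite one, and whether the libraries keep strand is not given in the sources used here.

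LY96 (chromosome 8, 73991392 to 74029072), the lipid-binding partner of TLR4, had the shortest transcript of the 10 genes at 545 bases and was detected in every library. Its levels were 1.13, 1.44 and 1.53 CPM in DMSO cells, 0.554, 2.64 and 2.64 in Dex cells, 2.12, 1.88 and 3.13 in KLA cells, and 1.6, 1.39 and 1.83 in DexKLA cells. All 3 KLA libraries lay above all 3 DMSO and all 3 DexKLA libraries. The Dex libraries ran from below all other libraries (0.554) to inside the KLA range (2.64). On the log2 scale KLA versus DMSO gave 0.77 ± 0.4 (fold change ± standard error), Dex versus DMSO 0.69 ± 0.44 and DexKLA versus KLA −0.51 ± 0.33. With edgeR's quasi-likelihood test, adjusted over 13166 genes, none of the 3 passed the threshold (adjusted p 0.191, 0.379 and 0.588). The 95% interval of DexKLA versus KLA, −1.19 to 0.17, leaves room for a fall of over 2-fold. The interaction, which asks whether KLA acted differently with Dex present, was −1.2 ± 0.54 (adjusted p 0.197).

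CD14 (chromosome 5, 140631728 to 140633701) was lower than with DMSO after every treatment, and the change passed the test with KLA and with DexKLA. It stood at 10.7, 3.95 and 4.58 CPM in DMSO cells, 3.33, 2.87 and 3.08 in Dex cells, 3.08, 3.58 and 1.79 in KLA cells, and 2.74, 1.39 and 1.33 in DexKLA cells. No treated library reached the lowest DMSO library, and DMSO replicate 1 was more than 2-fold above the other DMSO libraries. Against DMSO, CD14 fell by 1.1 ± 0.33 on the log2 scale with KLA (0.465-fold, edgeR adjusted p 0.0332) and by 1.72 ± 0.39 in DexKLA cells (0.304-fold, adjusted p 0.0203). With Dex alone the value was −1.01 ± 0.37 (0.496-fold, 95% interval −1.78 to −0.24, adjusted p 0.13). In bulk RNA, fewer cells expressing a gene and less RNA per cell cannot be told apart.

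The CD14 calls rested on DMSO replicate 1. Without it the log2 fold change was −0.59 (adjusted p 0.323) with KLA and −1.2 (adjusted p 0.207) with DexKLA, so the direction stayed and both calls were lost. They were also lost without KLA replicate 3 (−0.85, adjusted p 0.0971) and without DexKLA replicate 2 (−1.63, adjusted p 0.0716) respectively. With depth class (the 6 deeper or 6 shallower libraries) as a covariate the values were −1.15 (adjusted p 0.307) and −1.75 (adjusted p 0.0924), and with only the KLA and DMSO libraries in the fit the KLA value was −1.1 (adjusted p 0.0549). With that covariate 4 and 173 of all 13166 tested genes were called for KLA and DexKLA versus DMSO. The Dex value was −0.49 without DMSO replicate 1 (adjusted p 0.551). With all DMSO libraries it passed with no filter on low counts (adjusted p 0.0225) and with only the Dex and DMSO libraries in the fit (0.0321). DexKLA libraries all lay below the Dex libraries and overlapped those with KLA. The tests of those steps gave −0.7 ± 0.41 for DexKLA versus Dex (adjusted p 0.741) and −0.61 ± 0.37 for DexKLA versus KLA (adjusted p 0.564). The 897 tested genes within 10% of its transcript length had a median of 0.14 for KLA versus DMSO, with 0.334% of them called lower.

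The membrane adaptors MYD88 and TIRAP did not pass the test in any comparison. MYD88 (chromosome 3, 38138661 to 38143021), the adaptor shared by most Toll-like receptors, stood at 33.2, 45.4 and 43.2 CPM in DMSO cells, 33.8, 36.4 and 41.3 in Dex cells, 37.4, 38.3 and 32.7 in KLA cells, and 35.2, 39.9 and 40.9 in DexKLA cells. The 4 groups overlapped throughout. MYD88 was measured well enough to bound a change. The 95% interval of its log2 fold change was −0.42 to 0.14 for Dex, −0.45 to 0.09 for KLA and −0.36 to 0.19 for DexKLA, each against DMSO.

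TIRAP (chromosome 11, 126283087 to 126294933), which anchors MYD88 at the membrane, stood at 8.17, 6.82 and 9.6 CPM in DMSO cells and 9.43, 6.71 and 6.38 in Dex cells. With KLA it stood at 6.22, 7.34 and 5.81 and with DexKLA at 6.62, 7.43 and 6.15. Most treated libraries lay below the DMSO range (6.82 to 9.6) and the rest within it. Its log2 fold change against DMSO was −0.33 ± 0.2 in KLA cells (adjusted p 0.266) and −0.3 ± 0.21 in DexKLA cells (adjusted p 0.438). TIRAP overlaps the antisense genes AP001318.1 and AP001318.2. Its shorter transcripts in the table held 44% and 40.7% of the kept transcript's total, while those of the other genes with several transcripts held at least 89.4%.

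TICAM1 (chromosome 19, 4815924 to 4831742), the adaptor of the endosomal branch, stood at 7.32, 4.31 and 4.8 CPM in DMSO cells and 4.44, 4.87 and 3.96 in Dex cells. With KLA it stood at 3.78, 5.07 and 4.13 and with DexKLA at 3.77, 4.18 and 4.32. DMSO replicate 1 was the highest of the 12 libraries and the remaining ones overlapped. The log2 fold change against DMSO was −0.23 ± 0.25 in Dex cells (adjusted p 0.656), −0.29 ± 0.23 in KLA cells (adjusted p 0.417) and −0.38 ± 0.25 in DexKLA cells (adjusted p 0.401). Without DMSO replicate 1 the values were 0, −0.06 and −0.15.

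IRAK1 (chromosome X, 154010507 to 154019902), the kinase that MYD88 recruits, was the most abundant of the 10 genes and did not pass the test in any comparison. Its levels were 314, 289 and 267 CPM in DMSO cells, 279, 268 and 242 in Dex cells, 275, 291 and 284 in KLA cells, and 262, 256 and 303 in DexKLA cells. The KLA libraries all fell inside the DMSO range. KLA versus DMSO gave a log2 fold change of −0.03 ± 0.1, with a 95% interval of −0.25 to 0.18. For Dex it was −0.14 ± 0.1 and for DexKLA −0.08 ± 0.1, neither called (adjusted p 0.464 and 0.688).

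TRAF6 (chromosome 11, 36483771 to 36510272), the ubiquitin ligase downstream of IRAK1, stood at 6.19, 6.46 and 3.93 CPM in DMSO cells, 4.99, 3.21 and 4.18 in Dex cells, 4.36, 3.67 and 3.8 in KLA cells, and 4.8, 3.25 and 4.82 in DexKLA cells. A pair of DMSO libraries lay above all others and the remaining DMSO library lay within the treated range. The log2 fold change was −0.53 ± 0.27 in Dex cells (adjusted p 0.266), −0.49 ± 0.24 in KLA cells (adjusted p 0.164) and −0.31 ± 0.26 in DexKLA cells (adjusted p 0.511). TRAF6 rested on 13.5 to 75.5 deposited counts per library.

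TRAF3 (chromosome 14, 102777479 to 102911500), the ubiquitin ligase of the TICAM1 branch, was lower than with DMSO in every treated library. It stood at 24.2, 20.1 and 19.4 CPM in DMSO cells, 14.4, 14 and 14.1 in Dex cells, 14.4, 14.9 and 13.1 in KLA cells, and 12.6, 14.4 and 18.4 in DexKLA cells. The Dex and KLA libraries lay close together, and DexKLA replicate 3 came nearest to the DMSO range. TRAF3 fell by 0.58 ± 0.15 on the log2 scale with KLA (0.669-fold, edgeR adjusted p 0.0195). With Dex the value was also −0.58 ± 0.16 but did not pass (adjusted p 0.0609), and with DexKLA it was −0.46 ± 0.16 (adjusted p 0.0988). The interaction of Dex and KLA was 0.7 ± 0.22 (95% interval 0.24 to 1.16, unadjusted p 0.00471, adjusted p 0.0824). TRAF3 overlaps RNU6-1316P on the same strand.

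The KLA call of TRAF3 was lost without DMSO replicate 1 (−0.48, adjusted p 0.106) and without KLA replicate 3 (−0.53, adjusted p 0.0578), and with depth class as a covariate (−0.62, adjusted p 0.209). The Dex value passed with DESeq2 (adjusted p 0.0404), and in edgeR with library size alone (0.0449), no filter (0.0326), the Dex and DMSO libraries alone (0.0159) and without KLA replicate 3 (0.0311) or DexKLA replicate 3 (0.0253). Without DMSO replicate 1 the Dex value was −0.49 (adjusted p 0.215) and the DexKLA value −0.37 (adjusted p 0.388). The DexKLA value passed without DexKLA replicate 3 (−0.66, adjusted p 0.0153), and the interaction without DexKLA replicate 1 (0.83, adjusted p 0.038).

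The TRAF3 transcript is long, at 7762 bases, and across the 13166 tested genes the change with KLA ran with transcript length (Spearman's rho −0.467; genes are not independent and share the same 6 libraries). Among 647 tested genes within 10% of its length, the median log2 fold change for KLA versus DMSO was −0.27, with 19.9% called lower. With each library's trend on length removed, TRAF3 stood at −0.37 (adjusted p 0.101), against −1.25 (0.0318) for CD14 and 0.5 (0.0179) for TBK1. For Dex versus DMSO rho was −0.448, and the like-length genes had a median of −0.22. For the interaction rho was 0.576, and the like-length genes had a median of 0.4. The part of length in the TRAF3 result beyond these values was not tested.

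**Figure D2:**
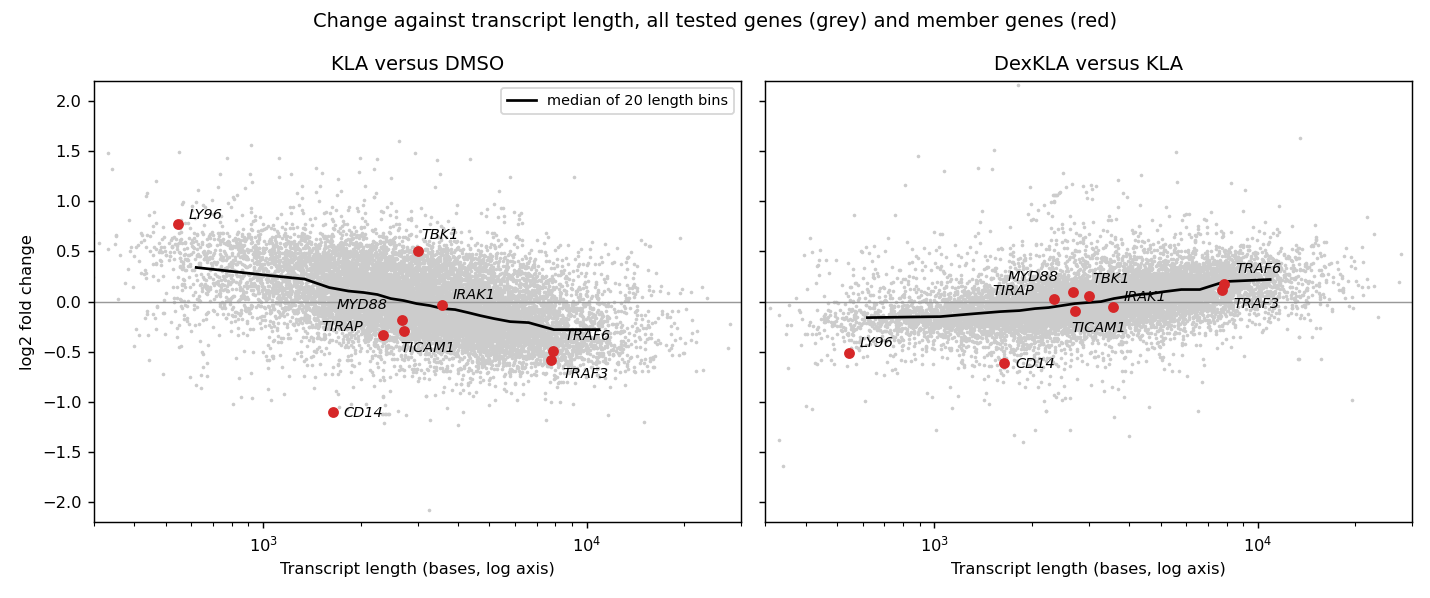
The log2 fold change against transcript length (log axis, bases) for KLA versus DMSO (left) and DexKLA versus KLA (right). Grey points are the 13166 tested genes, the black line joins the medians of 20 length bins, and red points are the 9 tested genes of the TLR4 complex and adaptors (some grey points lie outside the axes). TRAF3 and TRAF6 sit at the long end, where the black line is below 0 on the left and above 0 on the right, while CD14 on the left lies far below the line at its length.

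TBK1 (chromosome 12, 64452120 to 64502113), the kinase that acts with TRAF3, was higher than with DMSO in every treated library, and the change passed the test with KLA and with DexKLA. It stood at 33.2, 40.5 and 42.3 CPM in DMSO cells, 50.5, 42.7 and 47.9 in Dex cells, 57.2, 52 and 56.5 in KLA cells, and 58.5, 64.5 and 51.3 in DexKLA cells. The lowest Dex library was just above the highest DMSO library, and the KLA and DexKLA libraries all lay above all Dex libraries. TBK1 rose by 0.5 ± 0.12 on the log2 scale with KLA (1.42-fold, edgeR adjusted p 0.0136) and by 0.57 ± 0.12 in DexKLA cells (1.48-fold, adjusted p 0.0156). With Dex alone the value was 0.26 ± 0.13 (95% interval −0.01 to 0.52, adjusted p 0.255). DexKLA versus Dex gave 0.31 ± 0.12, with an unadjusted p of 0.0174 and an adjusted p of 0.695. TBK1 overlaps AC135279.3 on the opposite strand.

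Without DMSO replicate 1 the TBK1 values were 0.41 in KLA cells (adjusted p 0.087) and 0.48 in DexKLA cells (adjusted p 0.131), and both calls were lost. With depth class as a covariate the KLA call was lost (0.72, adjusted p 0.14) and the DexKLA call was not (0.72, adjusted p 0.0163). The DexKLA call was also lost without DexKLA replicate 1 (0.56, adjusted p 0.0664) or 2 (0.5, adjusted p 0.0911). Within the 6 shallower libraries, DexKLA versus DMSO gave 0.73 for TBK1 and −2.09 for CD14, but the only DexKLA library there is replicate 2, so these values have no replicate check. The 1408 genes of like length had a median of −0.02 for KLA versus DMSO, with 4.26% called higher.

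TRAF3 and TBK1, which act together in the TRIF branch, were thus displaced in opposite directions against DMSO, though their calls were lost without DMSO replicate 1. The ratio of TBK1 to TRAF3 counts, chosen after their values were seen, was 1.37, 2.02 and 2.18 in the DMSO libraries. It was 3.5, 3.05 and 3.41 in Dex cells, 3.98, 3.49 and 4.31 in KLA cells, and 4.65, 4.48 and 2.78 in DexKLA cells. Every treated library exceeded every DMSO library, and the treated groups overlapped one another. That separation follows from the TBK1 and TRAF3 levels given above and is not a further observation. An exact permutation test of the log2 ratio gave p 0.1 for Dex, KLA and DexKLA, each against DMSO. With 3 libraries against 3 this is the smallest p that the test can give, so it cannot decide. The 3 treated groups share the same DMSO libraries, so they are not separate observations of the difference.

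Read by comparison, 3 of the 9 tested genes were called for KLA versus DMSO (TBK1 higher, CD14 and TRAF3 lower), where 13.7% of all tested genes were called (7.78% higher and 5.94% lower). For DexKLA versus DMSO 2 of 9 were called (TBK1 higher, CD14 lower), against 4.22% of all genes (2.84% higher and 1.38% lower). For Dex versus DMSO 0 of 9 were called by edgeR, against 2.05% of all genes, with 2 at an unadjusted p under 0.05 (CD14 and TRAF3). DESeq2 called 1 (TRAF3, with no adjusted p for 5 of the 9) and limma voom 0, against 650 and 207 of all 13166 tested genes. For DexKLA versus KLA 0 of 9 were called by edgeR, DESeq2 or limma voom, with 0 at an unadjusted p under 0.05. Of all 13166 tested genes these tools called 86 (0.653%), 116 and 84 respectively. For DexKLA versus Dex none of these tools called any of the 9, with 1 at an unadjusted p under 0.05 (TBK1), and 0% of all genes were called. For the interaction 0 of 9 were called by edgeR, DESeq2 (6 with no adjusted p) or limma voom, with 2 at an unadjusted edgeR p under 0.05 (LY96 and TRAF3). Of all 13166 tested genes these tools called 5 (0.038%), 705 and 0 respectively. Of all 13166 tested genes, 2683 had an unadjusted edgeR p under 0.05 for Dex versus DMSO and 1385 for DexKLA versus KLA. The number was 935 for DexKLA versus Dex and 2922 for the interaction.

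Without DMSO replicate 1, none of the 3 KLA calls and neither of the DexKLA calls was kept in edgeR, and over all tested genes the calls went from 1806 to 5 and from 556 to 48. With depth class as a covariate the calls over all tested genes went to 4 and 173. The median log2 fold change of the 9 was −0.17 for Dex, −0.29 for KLA and −0.3 for DexKLA against DMSO, with 2 above and 7 below 0 each time. Over all tested genes it was −0.01, −0.02 and −0.02. For DexKLA versus KLA the median of the 9 was 0.03 and for DexKLA versus Dex 0.06. The 3 libraries of a group lay all above or all below those of the other for 3 of 9 genes with Dex (28% of all genes), 4 of 9 in KLA cells (36.2%) and 3 of 9 in DexKLA cells (26.2%), each against DMSO. The same held for 1 of 9 for DexKLA versus KLA (15.3%) and 2 of 9 for DexKLA versus Dex (12.7%).

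**Figure D3:**
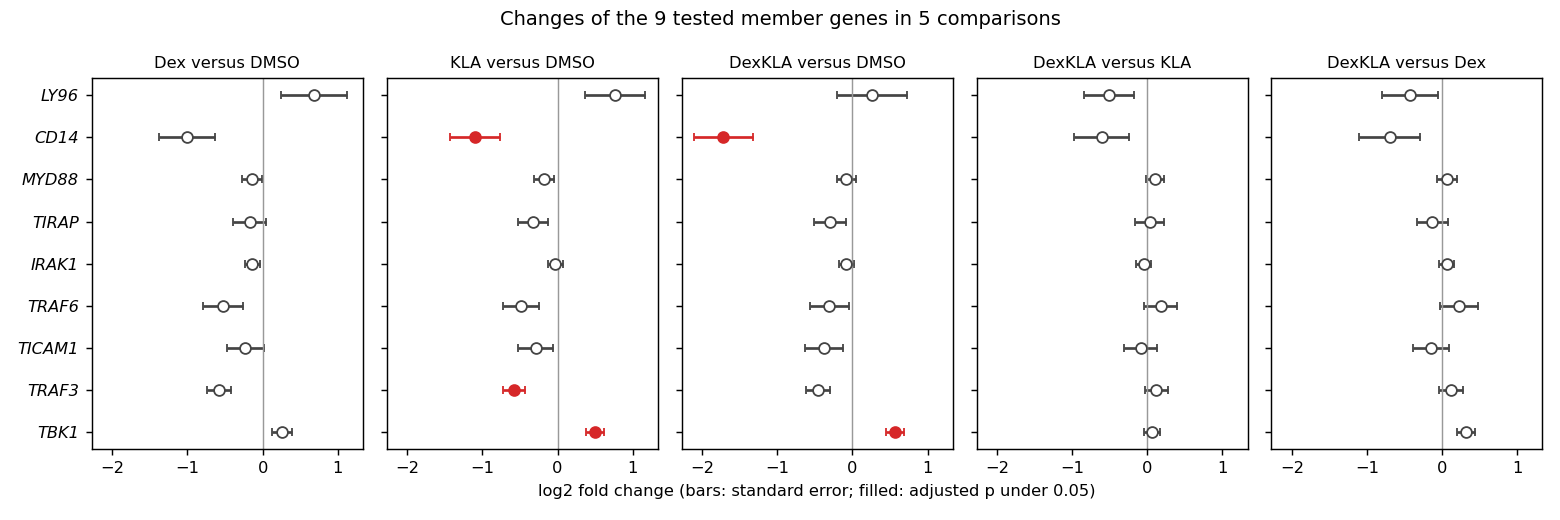
The log2 fold change of the 9 tested genes in 5 comparisons, from the edgeR model. Bars are standard errors, and filled red points passed an adjusted p of 0.05. CD14 is filled and left of 0, and TBK1 filled and right of 0, in the KLA and DexKLA comparisons with DMSO, TRAF3 is filled and left of 0 in KLA cells, and no point is filled in the comparisons between treated groups.

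For each called gene, the 3 tested genes with the most similar profile were found by Pearson's r of log2 CPM over the 12 libraries. For CD14 these were YARS (r = 0.955), EPHB4 (0.941) and MARS (0.93). For TRAF3 they were HNRNPUL1 (0.968), TOP1 (0.962) and IARS (0.96). For TBK1 they were BIRC2 (0.981), SLC30A9 (0.975) and DDX18 (0.973). These are the highest of the correlations with all tested genes, over libraries that share depth and length trends, and are given as a description. YARS, MARS and IARS encode aminoacyl-tRNA synthetases, and BIRC2 encodes a ubiquitin ligase (cIAP1).

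Other genes of lipopolysaccharide recognition were mostly near 0. Of 7 in the list, 2 passed the filter on low counts, and LBP, the plasma protein that delivers lipopolysaccharide to CD14, had 0 counts in 11 libraries and 2 counts in the remaining one. CD36, a scavenger receptor, stood at 8.72 ± 2.1 CPM in DMSO cells, 15.9 ± 0.541 in Dex cells, 12 ± 0.98 in KLA cells and 20.9 ± 1.64 in DexKLA cells. It rose by 0.85 ± 0.18 (log2) with Dex (edgeR adjusted p 0.0137) and by 1.27 ± 0.17 in DexKLA cells against DMSO (adjusted p 0.000203), and by 0.81 ± 0.14 for DexKLA versus KLA (adjusted p 0.00385). The Dex call of CD36 was lost without DMSO replicate 1 (0.76, adjusted p 0.095) or 2 (0.75, 0.0911), or Dex replicate 2 (0.87, 0.0755) or 3 (0.83, 0.0596). Its DexKLA call against DMSO was kept with any library left out, DMSO replicate 1 included (1.17 to 1.48, edgeR adjusted p at most 0.00442). The CD36 call for DexKLA versus KLA was lost in the 6 deeper libraries alone (0.85). No other Toll-like receptor passed the filter. Summed over 12 libraries as rounded counts, TLR6 had 52, TLR3 29, TLR2 24, TLR1 18, TLR9 3 and TLR7 2, against 42 for TLR4, and TLR5, TLR8 and TLR10 had 0.

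Downstream of MYD88, 13 of 14 listed genes were tested, and for KLA versus DMSO 1 was called higher and 1 lower, where 13.7% of all tested genes were called. UBE2N, the ubiquitin-conjugating enzyme that works with TRAF6, went from 187 ± 23.3 to 274 ± 36.2 CPM (log2 0.55 ± 0.12, edgeR adjusted p 0.0105). TAB2, which links TRAF6 chains to the kinase TAK1, went from 50.6 ± 2.51 to 36.8 ± 2.4 (−0.46 ± 0.12, adjusted p 0.0174). UBE2N was also called for DexKLA versus DMSO (0.43 ± 0.12, adjusted p 0.0423). Around TICAM1, 8 of 11 were tested and FADD, a death-domain adaptor, was called higher with KLA (0.33 ± 0.11, adjusted p 0.0489), a call lost under limma voom (adjusted p 0.0574). Of 13 tested negative regulators, OTUD7B, a deubiquitinase, was called lower with KLA (−0.69 ± 0.19, adjusted p 0.0233). The counts of 2 of 13, 1 of 8 and 1 of 13 are near or below that background. Without DMSO replicate 1 none of these calls was kept (adjusted p 0.0743 for UBE2N with KLA and 0.27 in DexKLA cells, 0.087 for TAB2, 0.106 for FADD and 0.176 for OTUD7B). With depth class as a covariate all 4 KLA calls were lost (TAB2 −0.25, adjusted p 0.459; UBE2N 0.63, 0.154; OTUD7B −0.65, 0.277; FADD 0.21, 0.514), as was UBE2N with DexKLA (0.48, 0.0951). Under that covariate 4 of all 13166 tested genes were called for KLA versus DMSO. TAB2 and OTUD7B were also lost without KLA replicate 3 (adjusted p 0.0537 and 0.0607), and OTUD7B without DMSO replicate 3 (0.0525) and with the length trend removed (0.0996). FADD with KLA was further lost without DMSO replicate 2 or 3, Dex replicate 1 or 3, KLA replicate 2 or 3, or DexKLA replicate 1 or 2 (adjusted p 0.0524 to 0.133). UBE2N with DexKLA was further lost without DMSO replicate 2 or 3, Dex replicate 1 or 3, or DexKLA replicate 1 or 2 (adjusted p 0.0517 to 0.187).

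None of the 10 NF-kB and IkB genes and none of the 10 tested MAP kinase genes was called by edgeR for KLA versus DMSO, against 13.7% of all tested genes. At an unadjusted edgeR p under 0.05 there were 1 and 3, against 4167 of all 13166 tested genes. DESeq2 called 0 and 1 (2145 of all 13166 tested genes) and limma voom 0 and 0 (1673 of all). NFKBIA, the NF-kB inhibitor that the pathway itself induces, stood at 74.5 ± 6.78 CPM in DMSO cells and 66.3 ± 2.09 in KLA cells (−0.17 ± 0.1, adjusted p 0.288). Of 15 listed response genes, 5 were tested, and with KLA 2 were called higher. IER3, an immediate early gene, went from 81.2 ± 4.81 to 156 ± 27.7 CPM (0.94 ± 0.13, adjusted p 0.0011), and the chemokine gene CCL20 from 253 ± 46.8 to 528 ± 175 (1.06 ± 0.23, adjusted p 0.0107). IER3 kept its call without DMSO replicate 1 (0.99, adjusted p 0.0154), and CCL20 did not (0.92, adjusted p 0.0773). Both kept their KLA calls in the 12 alternative settings other than leaving out a library, depth class as a covariate included. Over edgeR, DESeq2 and limma voom the adjusted p there was at most 0.0339 for IER3 and 0.04 for CCL20. With Dex alone CCL20 also stood higher than with DMSO, at 458 ± 69 CPM (0.85 ± 0.23, edgeR adjusted p 0.0532). That Dex value was not called in the main fit but was called in 9 alternative settings. IER3 with Dex alone stood at 98.7 ± 5.81 CPM (0.28 ± 0.13, adjusted p 0.233).

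With both agents IER3 stood at 101 ± 14.5 CPM, a fall of 0.63 ± 0.12 (log2) against KLA alone (adjusted p 0.0131). That call was lost without KLA replicate 1 (−0.48, adjusted p 0.105) or DexKLA replicate 3 (−0.51, adjusted p 0.12), and with the KLA and DexKLA libraries alone (−0.63, adjusted p 0.124). It was also lost in the 6 deeper libraries alone (−0.71). CCL20 was called for DexKLA versus DMSO (1.02 ± 0.23, adjusted p 0.0183), a call lost without DMSO replicate 1 (0.88, adjusted p 0.181) or 2 (1.04, 0.0521), or DexKLA replicate 1 (1.01, 0.0697) or 2 (0.71, 0.141). CXCL8 stood at 1.29 ± 0.155 CPM in DMSO cells and 2.55 ± 0.606 in KLA cells (0.94 ± 0.36, adjusted p 0.0761). IL6 and IL1B had 0 counts in all 12 libraries. The medians of the listed genes for KLA versus DMSO were −0.05 downstream of MYD88, 0.11 around TICAM1, −0.12 for negative regulators, −0.2 for NF-kB and IkB genes, −0.04 for MAP kinase genes and 0.94 for the 5 response genes, against −0.02 over all genes.

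**Figure D4:**
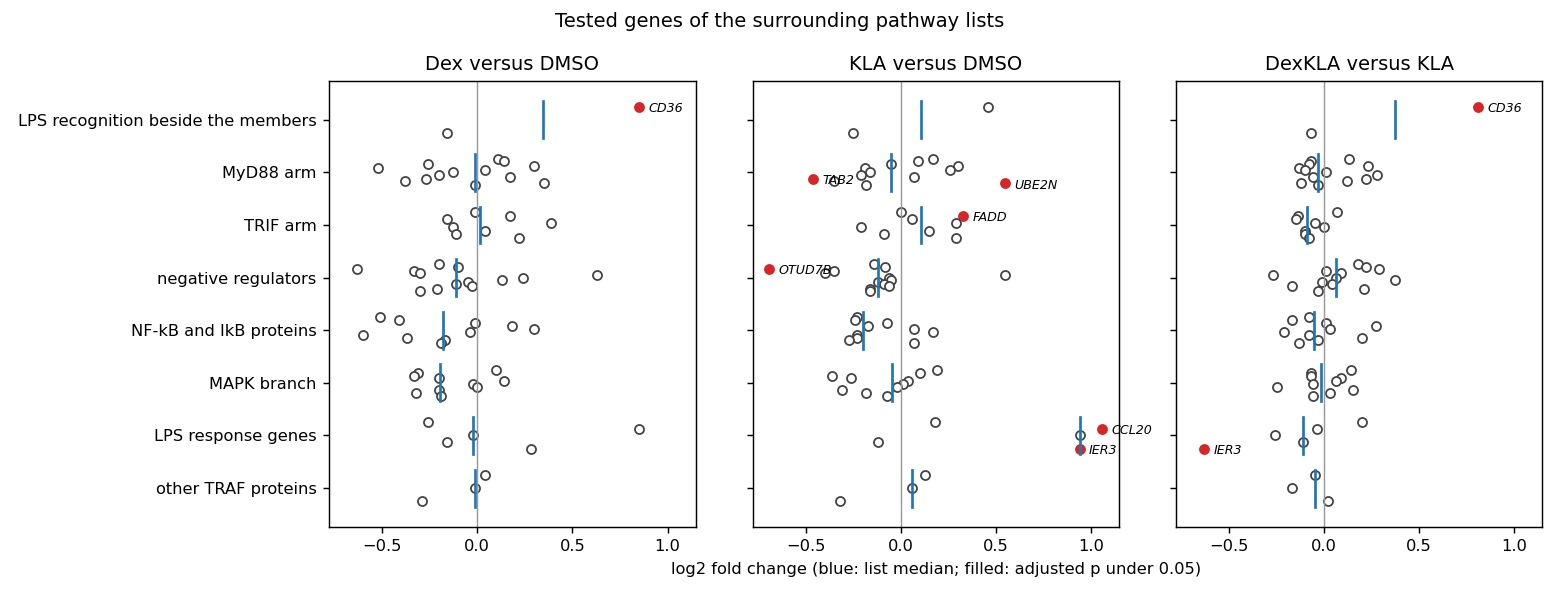
The log2 fold change of tested genes in 8 lists of the surrounding pathway, for Dex versus DMSO, KLA versus DMSO and DexKLA versus KLA. Each point is a gene, filled red points passed an adjusted p of 0.05 and are named, and blue lines are list medians. Open points crowd around 0 in most lists, and IER3 lies at 0.94 in KLA cells against DMSO and at −0.63 with both agents against KLA.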

How the data were processed

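RNA sequencing of 12 HepG2 libraries was read from a deposited file of 70507 RefSeq transcripts. Its values, deposited by the authors in steps of 0.5, were taken to be expected counts, since 32.6% to 36.4% of them per library were not whole. Trimmomatic, BWA 0.7.17, HOMER 4.10 and hg38 are named in the submitters' processing notes, without their roles, and no source used here gives the strand. Expected counts were rounded. Transcripts with no symbol (406, 1.71% to 2.55% of a library's total) were left out. For each symbol the transcript with the highest total was kept, and transcripts of a gene share reads.

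edgeR 4.0.16 in R 4.3.3 was used with TMM scaling, filterByExpr (minimum count 10, 13166 genes kept), a quasi-likelihood fit of 1 mean for each group over all 12 libraries (8 residual degrees of freedom) and Benjamini-Hochberg adjustment over all tested genes in each of 6 comparisons. Called means an adjusted p under 0.05. Levels are TMM-scaled CPM, and limits at 3 counts and pooled intervals use plain totals. Where a library was left out of a group of 3, the shared spread came from all groups. Profiles used a prior count of 2. DESeq2 1.42.0 and limma 3.58.1 were alternatives. Figures were drawn with matplotlib.

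The rule named all 10 genes, up to 4 called genes per pathway list and comparison, and the 3 nearest profiles of each called gene. NFKBIA, CXCL8, LBP, IL6, IL1B and the other Toll-like receptors were named after their values were seen. The 10 genes and the 12 lists were chosen with earlier results of these data known, and a pattern seen there is not independent support.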

Additional observations from a re-analysis of the deposited data

How the results depend on the processing

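Depth limits the low genes: TLR4 could not be tested, and LY96, CD14, TRAF6 and TICAM1 rest on few counts in the shallow libraries. KLA versus DMSO has no depth class holding both groups, so no value within a class could be had. Library size alone moved the median of all genes to −0.11, −0.13 and −0.12 (log2) for Dex, KLA and DexKLA against DMSO, and called 534 higher of 2253 for KLA, where TMM gave 1024 of 1806.

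Of the 9 tested genes, 0 were called by edgeR for Dex versus DMSO, against 1 with library size alone, 1 with DESeq2, 2 with no filter, 2 with the groups compared alone, and 0 to 1 with a library left out. Over all tested genes the calls were 270 of 13166 in the main fit, 399 with library size alone and 650 with DESeq2. With no filter they were 909 of 19916, with the groups compared alone 1348 of 12249, and with a library left out 56 to 915. For KLA versus DMSO the 3 calls became 2 with DESeq2 (CD14 had no adjusted p), 2 with 50 counts in 3 libraries (CD14 was not tested), 2 with the length trend removed (TRAF3 lost), 2 with the groups compared alone (CD14 lost), 0 with depth class as a covariate and 0 to 3 with a library left out. Calls over all tested genes were 1806 of 13166 in the main fit, 2145 with DESeq2 and 1064 with the length trend removed. With 50 counts in 3 libraries they were 1902 of 11731, and with the groups compared alone 1396 of 13385. Depth class as a covariate gave 4 of 13166, and leaving out a library 5 to 2363. For DexKLA versus DMSO the 2 calls became 1 with DESeq2 (CD14 had no adjusted p), 1 with 50 counts in 3 libraries (CD14 was not tested), 1 with depth class as a covariate, and 0 to 3 with a library left out. All tested genes together had 556 calls of 13166 in the main fit, 920 with DESeq2 and 173 with depth class as a covariate. With 50 counts in 3 libraries they had 572 of 11731, and with a library left out 48 to 1461. For the interaction, leaving out a library gave 0 to 1, and 0 to 681 over all tested genes. The cause was not tested beyond what each setting changes by construction.

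Same-numbered libraries were not more alike than others: their deviations had a median correlation of −0.041 (18 pairs) against 0.0352 (36 pairs) for different numbers, and 0 libraries matched their own number best. The labels do not say what a replicate number marks, so whether same-numbered libraries shared a culture or day stays unknown. With the replicate block, 0, 3, 2, 0, 0 and 0 of the 9 genes were called in the 6 comparisons, as without it. Over all genes the block gave 134, 1360 and 325 calls for Dex, KLA and DexKLA against DMSO. FADD with KLA (adjusted p 0.0747) and UBE2N with DexKLA (adjusted p 0.0601) were not called under it.

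Over 66 gene and comparison pairs, 1591 alternative values were computed, of which 1487 kept direction and side of the threshold, 68 lost and 10 gained a call, and 26 turned direction, none of them a call. Only a pair called in the main fit could lose a call, and most of the 66 were not called there. The 1487 therefore does not measure how steady the calls were. The log2 values that turned were, with depth class as a covariate, −0.17 for LY96 (DexKLA versus DMSO) and −0.02 for TIRAP and 0 for TBK1 (DexKLA versus KLA). With the length trend removed they were 0 for IRAK1 (KLA versus DMSO), −0.05 for TRAF3 (DexKLA versus KLA) and −0.03 for TRAF3 (DexKLA versus Dex). In the 6 deeper libraries alone they were −0.03 for TIRAP and −0.02 for TBK1 (DexKLA versus KLA), and in the 6 shallower ones −0.02 for IRAK1, −0.48 for TRAF6 and 0 for TICAM1 (DexKLA versus Dex). With a library left out, values ran from −0.39 to 0 for TICAM1 (Dex versus DMSO), −0.09 to 0.03 for IRAK1 (KLA versus DMSO), −0.2 to 0.01 for MYD88 (DexKLA versus DMSO), and for DexKLA versus KLA from −0.05 to 0.14 for TIRAP, −0.17 to 0.05 for TICAM1, −0.08 to 0.25 for TRAF3 and −0.01 to 0.15 for TBK1. For DexKLA versus Dex they ran from −0.23 to 0 for TIRAP, −0.02 to 0.1 for IRAK1, −0.03 to 0.34 for TRAF6 and −0.08 to 0.25 for TRAF3, and for the interaction from −0.12 to 0.68 for CD14 and −0.09 to 0.3 for TICAM1.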
